A study of Mus musculus with 15 samples.

Results

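Gpr158 and Gpr179 encode a pair of closely related orphan receptors of class C, the G-protein coupled receptor class that also holds the metabotropic glutamate, GABA-B and calcium-sensing receptors. They are 2 of the 38283 genes in the deposited expression table of sorted mouse islet cells, and were taken from it by their gene names. They were selected on measured values of this same table, Gpr158 for being highest in beta cells and Gpr179 for being highest in delta cells, so those differences are given as a description with no test. Delta against alpha cells for Gpr158, and beta against alpha cells for Gpr179, were not part of that selection and were tested.

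RNA sequencing covered 15 samples of cells sorted by flow cytometry from islets of C57BL/6 mice. Alpha cells (n = 5) were the Venus-positive cells of Glu-Venus mice, in which the proglucagon promoter drives the Venus fluorophore. Beta cells (n = 4) were Venus-negative cells of the same line, gated on high scatter and autofluorescence and not by a reporter of their own. Alpha and beta samples may therefore share mice, which the labels do not say, and were treated as independent. Delta cells (n = 6) were EYFP-positive cells from a cross of Sst-Cre mice with a ROSA26 EYFP reporter line, so that Cre expressed from the somatostatin promoter marks them; mouse line and cell type cannot be told apart for delta cells. No treatment was given in the labels, nor were the animals' age and sex. Islets of several mice were pooled for each sample, and the spread between samples is therefore a spread between pools. In a bulk sample, a change in the share of cells that express a gene cannot be told apart from a change in RNA per cell.

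The labels were checked against marker genes. The summed FPKM (sequenced fragments of a gene, scaled by transcript length and by how many reads the sample had mapped) of the alpha, beta and delta marker lists was highest in the cell type of that name, with no overlap between cell types. Ppy, the pancreatic polypeptide hormone, was at 17728 to 41392 FPKM in alpha cells and 10857 to 48600 FPKM in delta cells, against 16.9 to 98.1 FPKM in beta cells. Endothelial, immune and stromal lists did not exceed a summed 3.79 FPKM in any sample, whereas 5 acinar genes reached 434 FPKM in delta cells. Duct genes summed to 6.83 to 15.2 FPKM in alpha, 2.81 to 16.2 in beta and 8.69 to 20.8 in delta cells, and glial genes to 4.35 to 15.4, 2.89 to 8.53 and 7.25 to 10.5. A total over 84 genes for ribosomal proteins split the samples of every cell type: it was above 50000 FPKM in 6 samples (alpha 1 to 3, beta 2, delta 1 and 2) and below it in the other 9, a limit drawn after the values were seen. The former are called the upper set and the latter the lower set. The FPKM of all genes summed to 12474382 or more in the upper set and to at most 4671212 in the lower, so the sets differ in more than ribosomal protein genes. Read totals could be worked out for 6 samples only, between 7.43 M and 30.5 M reads, and the depth of the other 9 is unknown.

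GPR158 and GPR179 have an unusually long intracellular tail that binds complexes of a regulator of G-protein signalling (RGS7 or a relative) with the G-protein beta subunit Gnb5, and so hold at the membrane the machinery that switches off Go and Gi signals. Neither has the glutamate-binding Venus flytrap module of the glutamate receptors. GPR158 is known from the brain, where glycine and osteocalcin have been proposed as its ligands and the proteoglycan glypican 4 as its partner across the synapse. GPR179 is known from ON-bipolar cells of the retina, where it sits beside the glutamate receptor Grm6 and the channel Trpm1, binds pikachurin (Egflam) and, when lost, causes night blindness. In the islet, alpha cells release glucagon, beta cells insulin, and delta cells somatostatin, which restrains both neighbours through receptors coupled to Gi.

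The related genes differ in size and in the sequence around their start sites. On GRCm38 (GENCODE M21), Gpr158 (ENSMUSG00000045967) lies on the plus strand of chromosome 2, from 21367542 to 21830547, a span of 463006 bp, and its coding transcript has 11 exons and 7171 nt. Gpr179 (ENSMUSG00000070337) lies on the minus strand of chromosome 11, from 97332109 to 97352077, a span of only 19969 bp, and its coding transcript also has 11 exons, with 9219 nt. The promoters, from 250 bases before to 50 bases after the RefSeq start (GRCm38.p6), are shown because their CpG content differs. CG dinucleotides are in capitals. They run from chr2:21367317-21367616 (plus strand) and chr11:97352307-97352606 (minus strand), and the RefSeq start of Gpr179 is 279 bases upstream of the GENCODE gene's own. The Gpr179 window therefore does not reach the GENCODE start, whereas the Gpr158 window holds its own.
Gpr158: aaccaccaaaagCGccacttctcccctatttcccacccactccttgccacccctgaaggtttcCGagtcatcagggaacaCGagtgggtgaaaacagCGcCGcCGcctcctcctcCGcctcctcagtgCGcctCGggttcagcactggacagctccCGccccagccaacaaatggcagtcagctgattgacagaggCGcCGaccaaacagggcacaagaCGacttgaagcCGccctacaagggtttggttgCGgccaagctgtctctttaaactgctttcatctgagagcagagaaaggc
Gpr179: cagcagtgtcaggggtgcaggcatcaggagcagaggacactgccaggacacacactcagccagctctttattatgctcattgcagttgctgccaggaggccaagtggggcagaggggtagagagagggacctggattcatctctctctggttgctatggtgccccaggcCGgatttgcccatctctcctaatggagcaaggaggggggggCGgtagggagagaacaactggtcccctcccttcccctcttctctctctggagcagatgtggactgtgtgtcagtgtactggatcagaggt

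The Gpr158 window held 15 CpG and the Gpr179 window 2, against a median of 7 over 32851 mouse promoters of the same length, although their GC content was alike at 58.3% and 57.7%. The Gpr158 window had more CpG than 65.4% of promoters, and the Gpr179 window more than 14.1%. Of 4 motifs searched on both strands, TATAAA was in neither window (it is in 13.6% of promoters), and the GC box core GGGCGG had 2 matches in Gpr158 and 1 in Gpr179 (35.7%). The homeodomain core TAAT had no match in Gpr158 and 2 in Gpr179 (58.0%), and the E-box CANNTG had 3 and 4 (72.3%). These matches describe the letters only; no binding was measured.

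Gpr158 was highest in beta cells, with delta cells next and alpha cells lowest by mean. Its level in beta samples 1 to 4 was 15.8, 36.2, 13.6 and 44.1 FPKM, a mean of 27.4 ± 15.1 (SD, n = 4). In alpha samples 1 to 5 it was 0.134, 0.0761, 0.152, 0.179 and 0.450 FPKM, a mean of 0.198 ± 0.146 (SD, n = 5). Delta cells ranged from 0.122 to 3.12 FPKM with a median of 2.47 and a mean of 1.99 ± 1.21 (SD, n = 6). Every beta sample stood above every other sample, and the lowest beta sample was 30.2-fold above the highest alpha sample and 4.35-fold above the highest delta sample. On the log2(FPKM + 1) scale, which understates changes of low values, beta cells exceeded alpha cells by 4.41 and delta cells by 3.22. By mean FPKM the ratios were 138 and 13.8. The order of the beta samples depended on the scaling: after median-ratio scaling they were at 24.1, 21.7, 30.5 and 43.7, with sample 2 lowest in place of sample 3.

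Gpr179 was highest in delta cells, with alpha cells next and beta cells lowest. Its level in delta cells ranged from 13.9 to 21.7 FPKM with a median of 19.6 and a mean of 19.1 ± 2.77 (SD, n = 6). In alpha samples 1 to 5 it was 0.715, 2.04, 0.510, 2.21 and 6.24 FPKM, a mean of 2.34 ± 2.31 (SD, n = 5). In beta samples 1 to 4 it was 0.00393, 0.0631, 0.00114 and 0.247 FPKM, a mean of 0.0787 ± 0.116 (SD, n = 4). All delta samples were above all alpha samples, and all alpha samples above all beta samples. The lowest delta sample was 2.22-fold above the highest alpha sample and 56.2-fold above the highest beta sample. Delta cells exceeded alpha cells by 2.82 and beta cells by 4.22 on the log2(FPKM + 1) scale, and by ratios of 8.17 and 243 in mean FPKM. Without alpha sample 5 the first ratio was 13.98, and without beta sample 4 the second was 842. The coefficient of variation of Gpr179 within delta cells, 14.5%, was the smallest of either gene in any cell type, the next being Gpr158 in beta cells at 55.0%. After median-ratio scaling these were 27.7% and 32.9%.

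**Figure D1:**
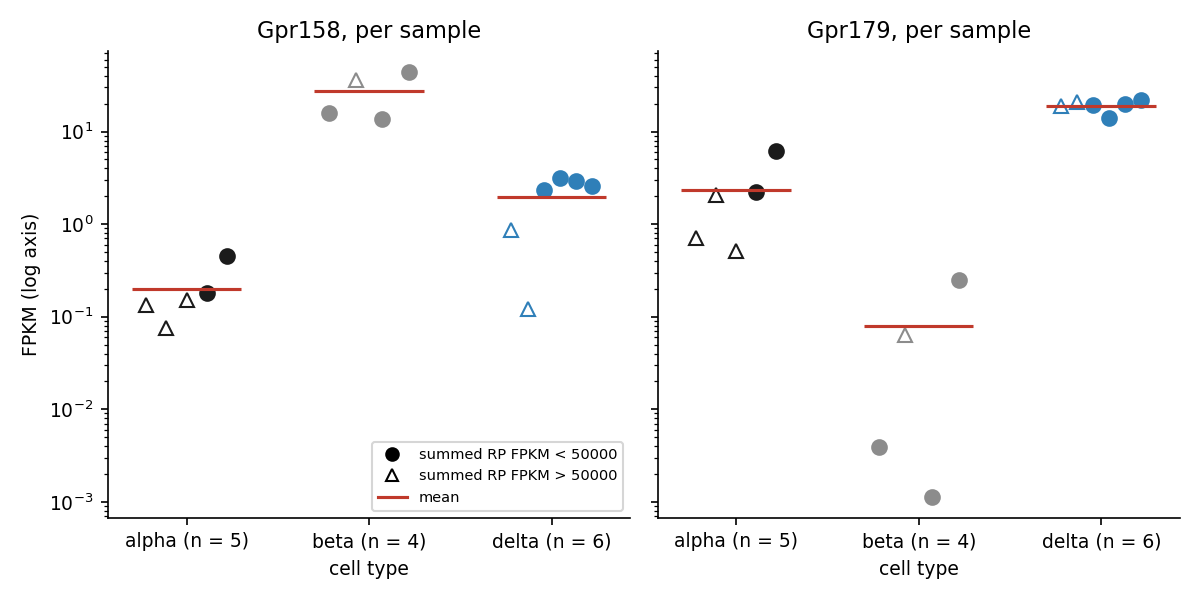
FPKM of Gpr158 (left) and Gpr179 (right) in each sample, on a log axis, by cell type; horizontal bars are means, and open triangles mark the 6 samples whose summed ribosomal protein (RP) FPKM was above 50000. Beta cells stand highest for Gpr158 (13.6 to 44.1) and delta cells for Gpr179 (13.9 to 21.7), while delta sample 2 (0.122) falls among the alpha samples for Gpr158.

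Within a sample the receptors were far from equal. FPKM is scaled by transcript length, so the genes can be set side by side on that scale. Gpr158 exceeded Gpr179 in 4 of 4 beta samples, by 179-fold to 11950-fold. The largest ratios rest on Gpr179 at 0.00114 and 0.00393 FPKM, in beta samples 3 and 1. In most samples of known depth 1 read is worth more than that, so these ratios are not precise. Gpr179 exceeded Gpr158 in 5 of 5 alpha samples, by 3.36-fold to 26.8-fold, and in 6 of 6 delta samples, by 4.44-fold to 171-fold. Among 91 genes of the table whose symbol is Gpr and a number, Gpr158 ranked 1 in beta cells by mean FPKM, 16 in delta cells and 30 in alpha cells. In delta cells Gpr179 ranked 2, after Gpr56 (27.4 FPKM), while its ranks were 12 among alpha and 37 among beta cell means. Over the whole table, 2091 genes had a higher mean than Gpr158 in beta cells and 2718 a higher mean than Gpr179 in delta cells.

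The comparison of delta with alpha cells asked whether the cells outside the beta population differ in Gpr158. The delta samples 1 to 6 were at 0.861, 0.122, 2.34, 3.12, 2.89 and 2.60 FPKM. Of these, 5 were above every alpha sample, whereas delta sample 2 lay inside the alpha range, so the groups overlapped. The delta mean was 10.04-fold the alpha mean, and the difference on the log2(FPKM + 1) scale was 1.19 (SE 0.387, 95% confidence interval 0.369 to 2.01). It did not pass the threshold over all 14405 genes tested (limma, Benjamini-Hochberg adjusted p = 0.0870), at which 5.33% of genes were called higher in delta cells. For this gene alone, p was 0.0216 in an exact permutation test (two-sided), where 0.00433 is the smallest value that 6 against 5 samples allow. The order of levels was thus beta above delta, with delta and alpha cells not separated by the test across all genes.

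The delta level of Gpr158 differed between the ribosomal protein sets. In the upper set delta samples were at 0.861 and 0.122 FPKM (mean 0.492), and in the lower set the other 4 were between 2.34 and 3.12 (mean 2.74). Alpha cells showed the same order, with a mean of 0.120 FPKM in the upper set and 0.315 in the lower, whereas beta sample 2, alone in the upper set at 36.2 FPKM, was above the mean of 24.5 in the other beta samples. Within the upper set the difference of delta from alpha cells was 0.37 (limma adjusted p = 0.635), and within the lower set, where the groups did not overlap, 1.51 (limma adjusted p = 0.116). With the set as a covariate it was 1.06 (limma adjusted p = 0.108). Without delta sample 2 the difference was 1.44 and was called (limma adjusted p = 0.0175). In the samples whose depth could be worked out, Gpr158 corresponded to 3.94 reads in alpha sample 2 and 8.52 in delta sample 2, against 65.4 in delta sample 1 and 555 in delta sample 4, so the lowest values rest on few reads. What part the sets and the depth have in the difference was not tested.

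Beta cell RNA in the delta samples can be gauged from beta marker genes. Gpr158 in delta cells averaged 7.26% of its beta cell mean, from 0.446% in delta sample 2 to 11.4% in delta sample 4. The insulin genes Ins1 and Ins2 averaged 2.08% and 1.95%, and none of the 6 delta samples exceeded 2.94% for either. Ucn3, a peptide of mature beta cells, averaged 1.23%, and Slc2a2, the glucose transporter GLUT2, 1.07%. The transcription factors Mafa and Nkx6-1 averaged 4.08% and 16.7%. In 5 of 6 delta samples Gpr158 was a larger share of its beta cell mean than Ins1, Ins2, Ucn3 and Slc2a2 were of theirs, delta sample 2 being the exception. Nkx6-1 was a larger share than Gpr158 in all 6 delta samples, and Mafa in delta samples 2 and 5. In alpha cells the reverse held for the means, with Gpr158 at 0.723% against 2.52% for Ins1 and 1.87% for Ins2.

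Beta against alpha cells was the comparison of Gpr179 that its selection did not use. All 4 beta samples (at most 0.247 FPKM) were below all 5 alpha samples (at least 0.510 FPKM). The alpha mean was 29.8-fold the beta mean, or 103-fold without beta sample 4 and 17.4-fold without alpha sample 5. On the log2(FPKM + 1) scale beta cells were lower (difference -1.40, SE 0.382, 95% confidence interval -2.21 to -0.589), and the gene was called (limma adjusted p = 0.0351), as were 4.82% of all genes in this direction. In an exact permutation test (two-sided) p was 0.0159, the smallest that 4 against 5 samples allow. The worth of 1 read in the beta samples is unknown. In the 6 samples of known depth, all alpha or delta, it was 0.00364 to 0.0149 FPKM; the beta value of 0.00114 lies below all of these and that of 0.00393 below 5 of 6, so ratios against them are not precise.

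The call of Gpr179 between beta and alpha cells was sensitive to the samples and settings used. Without alpha samples 2, 4 or 5, beta samples 1, 3 or 4, or delta sample 3, the adjusted p rose to between 0.0503 and 0.0900 (limma), with differences from -1.47 to -1.06. The call was also lost with the replicate number as a block, without the filter and with only these cell types fitted (limma adjusted p = 0.0708, 0.0748 and 0.131). With the ribosomal protein set as a covariate the difference was -1.55 (limma adjusted p = 0.0154), and within the lower set -2.16 (limma adjusted p = 0.0128). The upper set has 1 beta sample, too few to judge the call, and a difference of -0.90. Alpha cells again were lower in the upper set, at a mean of 1.09 FPKM against 4.22, whereas delta cells were at 19.1 and 21.0 FPKM in the upper set and averaged 18.7 in the lower.

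Delta cell RNA in the alpha samples was gauged in the same way. Gpr179 in alpha cells averaged 12.2% of its delta cell mean, from 2.67% in alpha sample 3 to 32.6% in alpha sample 5. Somatostatin (Sst) averaged 0.992% and did not exceed 1.49%, and Hhex, a delta cell transcription factor, averaged 0.991%. Ghsr, the ghrelin receptor, averaged 1.35%, and Rbp4, a retinol carrier also made by other cells, 45.9%. Alpha sample 5, with the most Gpr179, had Sst at 0.958% and Ghsr at 0.687% of their delta means; alpha sample 3, with the least, had Sst at 1.49% and Ghsr at 4.65%. In beta cells Gpr179 averaged 0.411% against 0.101% for Sst and 0.330% for Rbp4. Its mean there rests on beta sample 4, at 1.29%. In beta samples 1 to 3 Gpr179 was below Rbp4, and in beta samples 1 and 3 below Sst too. Ppy was also higher in alpha than in beta cells, as given above, and 3 neuronal genes together were at 4.51 to 14.9 FPKM in delta, 0.879 to 6.44 in beta and at most 0.953 in alpha cells; the part of other cells in the levels of either receptor was not tested.

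**Figure D2:**
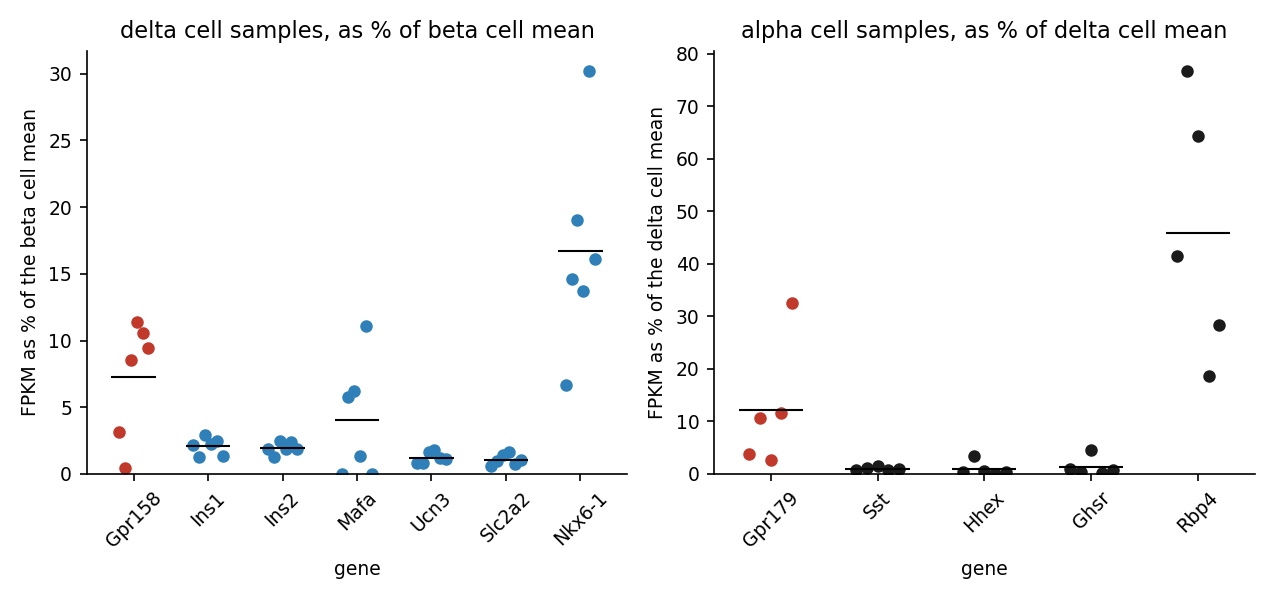
Left, each delta sample's FPKM of Gpr158 and 6 beta cell markers, as a percentage of the gene's beta cell mean; right, each alpha sample's FPKM of Gpr179 and 4 delta cell markers, as a percentage of the delta cell mean. Points are samples and bars are means; Gpr158 (7.26%) lies above Ins1 (2.08%) and Ins2 (1.95%), and Gpr179 (12.2%) above Sst (0.992%), whereas Nkx6-1 (16.7%) and Rbp4 (45.9%) are higher still.

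The receptors' known partners were then examined, starting with the RGS complex that their tails bind. Of its 7 genes, 5 passed the filter (a mean above 1 FPKM in at least 1 cell type): Rgs7, Rgs9, Rgs11, Gnb5 and Rgs7bp. Rgs7, the partner best known for both receptors, was at 8.15 ± 0.893 FPKM in alpha (SD, n = 5), 11.5 ± 5.22 in beta (SD, n = 4) and 17.2 ± 2.41 in delta cells (SD, n = 6). It was called higher in delta than in alpha cells, by 0.99 (SE 0.281, limma adjusted p = 0.0440), with no overlap between them. That call was lost on leaving out any 1 of the alpha or delta samples, with adjusted p up to 0.109 (limma). It was also lost with the replicate block and with a pseudocount of 0.1 (limma adjusted p = 0.0689 and 0.0575).

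Rgs9, best known from photoreceptors and the striatum, went with the delta cells. It was at 22.7 ± 3.89 FPKM there (16.6 to 27.2), against 2.67 ± 2.14 in alpha and 4.65 ± 3.08 in beta cells, and the highest of any alpha or beta sample was 9.06. The differences were 2.83 from alpha and 2.195 from beta cells (limma adjusted p = 7.76e-05 and 0.00108). Rgs11, which acts with Rgs7 in ON-bipolar cells, went with the beta cells, through which alone it passed the filter. It was at 3.87 ± 1.03 FPKM there (3.03 to 5.20), against 0.317 ± 0.375 in alpha and 0.471 ± 0.620 in delta cells. The differences were 1.90 for beta over alpha (limma adjusted p = 0.00173) and -1.79 for delta against beta cells (limma adjusted p = 0.00116).

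Gnb5, the beta subunit without which these RGS proteins are unstable, was not called in any comparison. Its means were 6.20 ± 4.39, 1.64 ± 1.82 and 7.40 ± 5.51 FPKM in alpha, beta and delta cells, with overlapping samples, and the lowest of its limma adjusted p was 0.0512, for delta over beta cells by 1.63. Its level differed between the ribosomal protein sets: in the upper set delta cells were at 13.6 and 15.2 FPKM and beta sample 2 at 4.33, and in the lower set delta cells were at 2.29 to 4.67 and beta cells at 0.443 to 1.14. Beta and delta cells thus overlapped across the sets but not within either. Rgs7bp, the membrane anchor of the complex, was at 1.33, 3.05 and 0.925 FPKM and was called lower in delta than in beta cells, by -1.06 (limma adjusted p = 0.0455). The call was lost on leaving out any of 12 of the 15 samples, with limma adjusted p up to 0.141. It was also lost with the replicate block, a pseudocount of 0.1 or either other filter. Rgs6 and Rgs9bp did not pass the filter.

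Of the 5 G-protein alpha subunits that these complexes act on, Gnao1 had the highest mean in each cell type, at 86.5 ± 73.0, 167 ± 119 and 146 ± 64.2 FPKM in alpha, beta and delta cells, and was not called. It was below Gnai1 in alpha samples 1 to 3 and below Gnai2 in delta samples 1 and 2. Gnai1 was highest in alpha cells. It was at 46.0 ± 15.05 FPKM in alpha cells (20.5 to 58.1), 9.44 ± 10.9 in beta cells and 5.30 ± 1.53 in delta cells. It was lower than in alpha cells by -2.61 in beta (limma adjusted p = 0.00603) and -2.86 in delta cells (limma adjusted p = 9.82e-04). Beta sample 2, at 25.6 FPKM, lay within the alpha range, so beta and alpha cells overlapped, and the call was lost when only these cell types were fitted (limma adjusted p = 0.0665). Gnai2, Gnai3 and Gnaz were not called.

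Among the extracellular partners, Egflam, the pikachurin that GPR179 binds in the retina, was found where neither receptor was highest. It passed the filter through alpha cells alone. It was at 8.15 ± 4.11 FPKM in alpha cells (2.65 to 12.1), against at most 0.149 in any beta sample and 0.537 in any delta sample. The differences from alpha cells were -2.99 in beta and -2.80 in delta cells (limma adjusted p = 4.24e-05 and 2.62e-05). Gpc4, the glypican known as a partner of GPR158, was at 40.6 ± 21.5, 20.8 ± 12.4 and 64.4 ± 21.4 FPKM in alpha, beta and delta cells. It was thus lowest by mean in the cells with most Gpr158, and was called higher in delta than in beta cells, by 1.67 (limma adjusted p = 0.0243). That call was lost on leaving out beta sample 1, 3 or 4 or delta sample 3 or 4 (limma adjusted p up to 0.0718), with the replicate block (limma adjusted p = 0.0537) and without the filter (limma adjusted p = 0.0510). The difference was 2.18 in the lower ribosomal protein set (limma adjusted p = 0.00409) and 0.32 in the upper, where beta sample 2 was at 38.8 and the delta samples at 52.8 and 45.1 FPKM. Gpc1, another glypican, was called in the same comparison at low levels, by 1.12 (limma adjusted p = 0.0177), with 0.131 FPKM in beta and 1.58 FPKM in delta cells. It passed the filter through delta cells alone. After quantile scaling the difference was 0.69 and was not called (limma adjusted p = 0.0725).

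Retinal and glycine genes that surround these receptors elsewhere were scarce. None of the 6 genes of the ON-bipolar cascade (Grm6, Trpm1, Nyx, Lrit3, Gnb3, Gng13) passed the filter. Nor did any of the 5 measured genes for osteocalcin and for glycine transport (Bglap, Bglap2, Slc6a5, Slc6a9, Slc32a1), of which Slc6a9 had the highest mean of any partner below the filter, 0.527 FPKM. In all, 15 of 31 measured partners were tested, and calls are counted for each comparison beside the share of all genes. In beta against alpha cells 1 was higher and 2 were lower, where 2.84% and 4.82% of all genes were called. In delta against alpha cells 2 were higher and 2 lower, beside 5.33% and 1.48% of all genes, and in delta against beta cells 3 were higher and 2 lower, beside 11.7% and 2.99%. The partners' median differences were 0.01, 0.78 and 0.75 in these comparisons, and those of all genes tested -0.13, 0.13 and 0.30.

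The other class C receptors showed how Gpr158 and Gpr179 sit in their family. Of 20 relatives in the table, 6 passed the filter, and Gprc6a had the highest mean of the other 14, 0.776 FPKM. None of the 8 metabotropic glutamate receptors and none of the 3 sweet and umami taste receptors passed. Gpr158 therefore had the highest mean of the listed class C receptors in beta cells. Next were Casr, the calcium-sensing receptor, at 12.7 ± 7.50 FPKM, and Gabbr2 at 11.1 ± 5.01. In beta sample 3, however, Gabbr2 (17.2 FPKM) was above Gpr158 (13.6 FPKM). In delta cells the mean of Gpr179 (19.1 FPKM) was near those of Casr (21.8 ± 12.4) and Gprc5c (19.1 ± 3.87), within their spread. Casr, however, differed between the ribosomal protein sets. In delta samples 1 and 2, of the upper set, it was at 9.46 and 4.15 FPKM, below Gpr179. In delta samples 3 to 6, of the lower set, it was at 23.2 to 34.7 FPKM, above Gpr179 in each.

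The GABA-B receptor works as a heterodimer of Gabbr1, which binds GABA, and Gabbr2, which couples to Gi. Gabbr2 was highest in beta cells (5.17 to 17.2 FPKM), as Gpr158 was, against 0.720 ± 0.561 FPKM in delta cells. It was called lower in delta than in beta cells, by -2.76 (limma adjusted p = 0.00237), without overlap. Over alpha cells the beta level was higher by 2.07 (limma adjusted p = 0.0330), although alpha sample 3, at 12.7 FPKM, lay within the beta range and the other 4 were at 0.240 to 1.07. Leaving out alpha sample 1, 2, 4 or 5 or beta sample 2, 3 or 4 ended that call, with limma adjusted p up to 0.0817. Gabbr1 was at 9.14, 4.66 and 12.03 FPKM in alpha, beta and delta cells and was called higher in delta than in beta cells, by 1.32 (limma adjusted p = 0.0346). It overlapped between them. Leaving out beta sample 1 or 4 or delta sample 1, 2, 4 or 6 ended the call (limma adjusted p up to 0.143), as did both other scalings. The replicate block, no filter and fitting only these cell types also ended it (limma adjusted p = 0.0775, 0.0668 and 0.0614).

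The 3 tested orphan Gprc5 genes, first known as genes induced by retinoic acid, had their lowest means in beta cells, where Gprc5a was at 0.00967 and Gprc5c at 5.34 FPKM. Gprc5b was at 0.0841 ± 0.125 FPKM in beta cells, against 2.73 ± 0.576 in alpha and 3.20 ± 0.605 in delta cells. Beta cells were lower than alpha cells by -1.77 and delta cells higher than beta cells by 1.95 (limma adjusted p = 1.66e-04 and 3.19e-05). Gprc5a and Gprc5c were called higher in delta than in beta cells, by 2.17 and 1.74 (limma adjusted p = 0.00156 and 0.00539), but not between beta and alpha cells (limma adjusted p = 0.342 and 0.189). Gprc5a passed the filter through delta cells alone. Gprc5a was also higher in delta than in alpha cells, by 1.48 (limma adjusted p = 0.0220), a call that was lost without alpha sample 1, 3 or 4 or delta sample 3 (limma adjusted p up to 0.0663). It was also lost with quantile scaling, the replicate block, no filter or only these cell types fitted (limma adjusted p from 0.0544 to 0.0591). Casr was not called, and ranged from 1.12 to 38.7 FPKM among alpha samples alone. Over the 6 tested relatives, beta against alpha cells had 1 call upwards and 1 downwards, delta against alpha cells 1 upwards, and delta against beta cells 4 upwards and 1 downwards. The shares of all genes called upwards and downwards were 2.84% and 4.82%, 5.33% and 1.48%, and 11.7% and 2.99%. Their median differences were -0.79, 0.58 and 1.53, beside the medians of all genes given above.

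**Figure D3:**
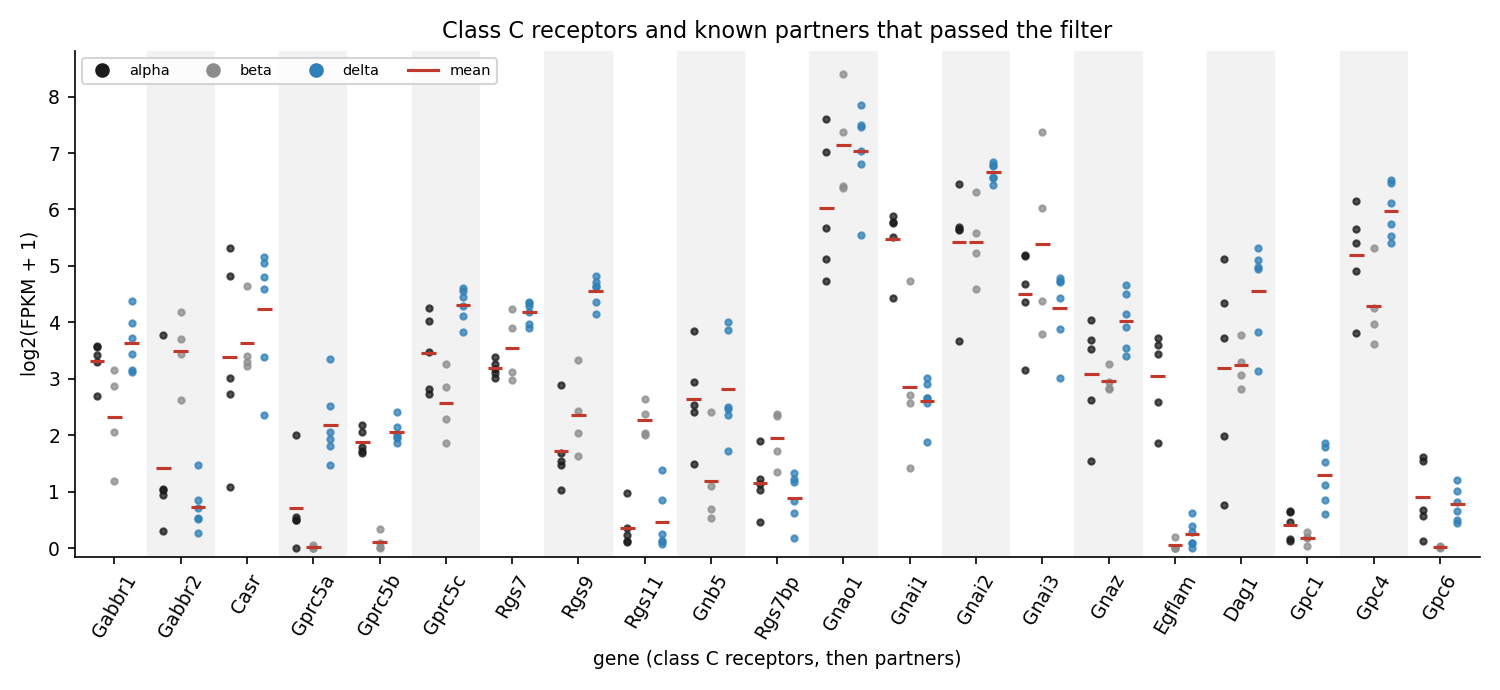
log2(FPKM + 1) of the 6 class C receptors (Gabbr1 to Gprc5c) and 15 partners (Rgs7 to Gpc6) that passed the filter, one point per sample by cell type, with bars at the means. Rgs9 in delta cells (mean 22.7 FPKM), Rgs11 in beta cells (3.87) and Egflam in alpha cells (8.15) stand apart from the other cell types, while Gabbr2 in alpha sample 3 (12.7) and Gnai1 in beta sample 2 (25.6) lie within the range of the highest cell type.

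These 2 lists gave 20 calls in 13 genes, counted above beside the shares of all genes called. Rgs11, Egflam, Gprc5a and Gpc1 passed the filter only through the cell type where they were highest. Their calls in that direction are therefore not independent of the filter. Of the 20 calls, 14 were also made whichever 1 sample was left out, and no alternative fit gave any of them the opposite sign. The samples below the ribosomal protein limit were part of the fit that gave these calls, so repeats there are largely built in. Of 14041 genes tested in them, 1373, 629 and 2958 were called in beta against alpha, delta against alpha and delta against beta cells. Within the samples below the limit 18 of 20 were called, the exceptions being Rgs7 and Rgs7bp. Within the 6 samples above it 1 of 19 was called, Gnai1 in delta against alpha cells (-3.14, limma adjusted p = 0.0215). Comparisons with beta cells there rest on 1 beta sample and those of delta with alpha cells on 2 against 3, so calls not made in that set say little.

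The genes most like each receptor were sought among all genes tested, by Pearson's r of log2(FPKM + 1) over the 15 samples. For Gpr158 they were Cntn1 (r = 0.982), a neural adhesion protein, Lancl3 (0.971), Pde5a (0.962), which breaks down cyclic GMP, Ntrk2 (0.955), the receptor for BDNF, and Ttc28 (0.950). Cntn1 followed Gpr158 closely in level too, with means of 0.243, 21.8 and 1.97 FPKM in alpha, beta and delta cells. For Gpr179 they were 9130017N09Rik (0.985), Nab2 (0.974), a repressor of early growth response factors, Lrrc8b (0.971), a subunit of volume-regulated anion channels, Dlc1 (0.963) and Fjx1 (0.961). Nab2 was at 2.54, 0.225 and 11.6 FPKM in alpha, beta and delta cells. Between Gpr158 and Gpr179 themselves r was -0.453. These coefficients describe samples that share a cell type and its libraries, and largely restate which cell type was highest.

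Genes around the receptors were looked at for shared signal, since the library kit was not stated to keep the strand. Gpr158 is overlapped by the antisense gene Gm13327 and the snoRNA gene Gm24886, both listed at 0 in all 15 samples, and by the pseudogene Gm13379, at most 1.33 FPKM. Its nearest coding neighbours are Thnsl1, which was not called in any comparison, and Myo3a. Myo3a, a myosin of sensory hair cells, was at 0.224 ± 0.400 FPKM in alpha, 3.55 ± 3.08 in beta and 0.719 ± 0.538 in delta cells, and was called higher in beta than in alpha cells (limma adjusted p = 0.0429). Gpr179 overlaps no other annotated gene, and its neighbours Mrpl45 and Socs7 were not called.

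**Figure D4:**
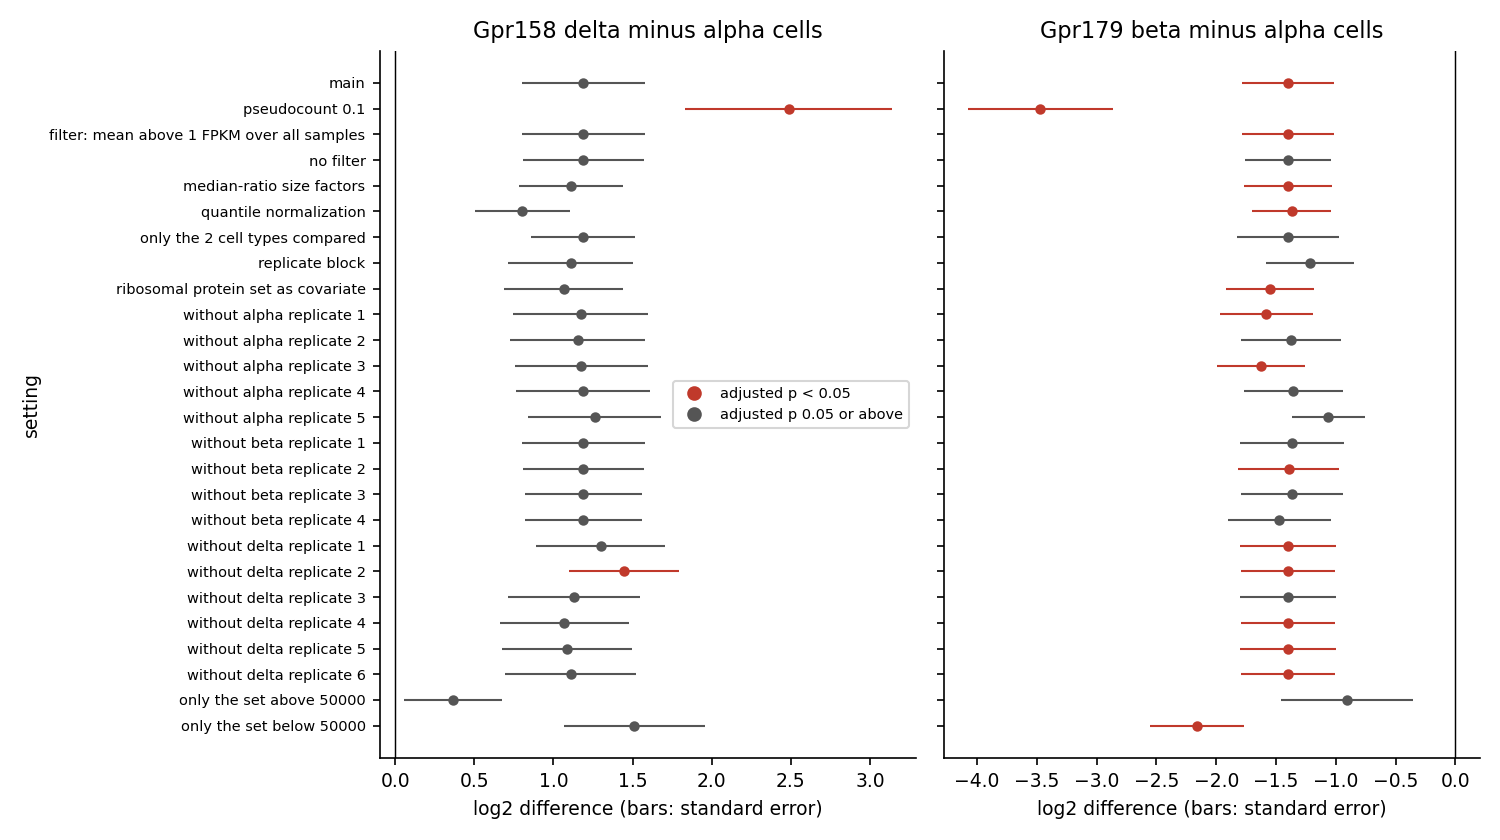
Difference in log2(FPKM + 1), with its standard error, for Gpr158 in delta minus alpha cells (left) and Gpr179 in beta minus alpha cells (right) under each setting of the analysis; red marks a limma adjusted p below 0.05. Every Gpr158 difference is above 0 and every Gpr179 difference below 0, but Gpr158 is called only with a pseudocount of 0.1 or without delta sample 2, and 11 settings, among them the upper set with its 1 beta sample, give Gpr179 an adjusted p of 0.05 or above.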

How the data were processed

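Per the labels and the study's methods, islet cells were sorted on a BD Influx, and libraries of amplified RNA (NuGEN) were read from one end over 50 nt. For alignment to GRCm38 the authors used TopHat (2.0.8 in the submitters' processing notes, a later version in the study's methods) and deposited FPKM values for each gene and sample from Cufflinks 2.2.1. The annotation release is not given in the sources used here. The authors tested raw counts with edgeR; those counts were not used here, so the test for normalised values was applied.

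Genes with a mean above 1 FPKM in at least 1 cell type (14405 of 38283) were fitted on log2(FPKM + 1), pseudocount 1, with limma 3.58.1 in R 4.3.3 (lmFit, eBayes with a trend), all 15 samples, no covariate and Benjamini-Hochberg adjustment, and called at adjusted p below 0.05. The fit was first tested on simulated data. Exact permutation tests used SciPy 1.17.1 and the other steps Python 3.11.15. The groups are those of the labels. P-values measure the spread between pooled samples.

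Depth was sought from steps of single reads in 5024 genes with 1 transcript above 1000 nt (length less 200 nt). It was resolved in 6 samples; the read numbers are estimates. Gene models are from GENCODE M21, which holds 36341 of the table's genes; promoters are from RefSeq, where both receptors were matched.

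Members, gene lists and tests were chosen with earlier results of these data known. Genes named are both receptors, every list gene called in a comparison, the others by counts and examples, the 5 genes with the highest correlation to each receptor, overlapping and nearest genes, marker genes and ranks among Gpr-numbered genes. Bglap3 was listed but not matched in the table.

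Alternatives were a pseudocount of 0.1, other filters, median-ratio and quantile scaling, fits of only the cell types compared, a replicate block, a covariate for the ribosomal protein set, adjusted p below 0.01 for the lists and each sample left out. The ratio of mean FPKM and the fits within the ribosomal protein sets were added after the data were seen.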

Additional observations from a re-analysis of the deposited data

Results flagged for a closer look

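Single samples far from the rest of their group were found in 9 of the 45 groups of samples examined (each receptor and each called list gene in each cell type), by Dixon's test of the gap to the nearest sample over the range, in groups of 4 to 6. Chance flags about 1 in 20 groups of normally distributed values, or 2.25 here; FPKM values are skewed and the list genes were chosen for being called, so the number is no evidence of an excess. For the receptors these were alpha sample 5 for Gpr158, at 0.450 FPKM against 0.0761 to 0.179 in the other alpha samples, and delta sample 4 for Gpr179, at 13.9 FPKM against 19.1 to 21.7. Alpha sample 5 was also apart for Rgs9, at 6.41 FPKM against 1.04 to 2.21. Alpha sample 2 was high for Gprc5a (2.99 FPKM, the others at most 0.457) and Rgs11 (0.972 FPKM, the others 0.0757 to 0.277). Alpha sample 3 was high for Gabbr2, at 12.7 FPKM against 0.240 to 1.07. Beta sample 2 was high for Gnai1, at 25.6 FPKM against 1.68 to 5.53. Beta sample 4 alone was above 0 for Egflam (0.149 FPKM) and for Gprc5a (0.0387 FPKM); with all others at 0, any value above 0 meets the rule.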

How the results depend on the processing

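Every alternative that was run kept the direction of the 6 receptor differences; causes of the changes below were not tested. With a pseudocount of 0.1, Gpr158 rose to 6.46 (beta over alpha), 3.98 (beta over delta) and 2.49 (delta over alpha, now called, limma adjusted p = 0.0244), and Gpr179 to 3.46 (delta over alpha) and 6.93 (delta over beta), with -3.47 in beta against alpha cells (limma adjusted p = 0.00117). The log2 ratios of mean FPKM were 7.11 and 3.33 for Gpr158 over alpha cells in beta and delta cells, 7.93 for Gpr179 in delta over beta cells and -4.90 in beta against alpha cells. In the upper ribosomal protein set the described differences were 5.05 and 4.68 (Gpr158, beta over alpha and over delta) and 3.40 (Gpr179, delta over alpha), and in the lower set 2.58 (Gpr158, beta over delta) and 2.01 (Gpr179, delta over alpha). Gpr179 in beta against alpha cells was no longer called without a filter (-1.40, limma adjusted p = 0.0748) or with only the compared cell types (-1.40, limma adjusted p = 0.131); in the upper set, whose 1 beta sample was assumed to vary like the other groups and is too few to judge the call, it was -0.90 (limma adjusted p = 0.397). Over all alternatives its limma adjusted p was 0.00117 to 0.397, and that of Gpr158 in delta against alpha cells 0.0175 to 0.635.

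Not all same-numbered samples deviated together (13 pairs, r from -0.152 to 0.281, those numbered 2 at 0.268 to 0.281), and the numbers were not taken as a pairing. These correlations cannot settle whether alpha and beta samples share mice, because all samples numbered 2 are also in the upper ribosomal protein set. With the replicate number as a block, Gpr179 in beta against alpha cells was -1.22 (limma adjusted p = 0.0708), and Gpr158 in delta against alpha cells 1.11 (limma adjusted p = 0.163). With that block 0 class C receptors were called in delta against alpha cells.

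Leaving out 1 sample at a time gave 1.07 to 1.44 for Gpr158 in delta over alpha cells and -1.63 to -1.06 for Gpr179 in beta against alpha cells. It gave 4.13 to 4.67 and 2.94 to 3.48 for Gpr158 in beta over alpha and delta cells, and 2.59 to 3.15 and 4.18 to 4.30 for Gpr179 in delta over alpha and beta cells. Class C calls went from 1 to 2 (beta against alpha), 0 to 1 (delta against alpha) and 4 to 5 (delta against beta), and partner calls from 3 to 4, 3 to 4 and 3 to 6. Class C calls in beta against alpha cells were 1 without a filter, with only the compared cell types and at adjusted p below 0.01, and those in delta against alpha cells were 0 in these 3 settings and with quantile scaling. Partner calls in delta against beta cells were 3 with either other filter, 8 with only the compared cell types and 2 at adjusted p below 0.01.

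Median-ratio scaling moved the median difference of all genes by 0.13, -0.12 and -0.28 in beta against alpha, delta against alpha and delta against beta cells, and calls from 409 higher and 695 lower to 1092 and 983, from 768 and 213 to 723 and 344, and from 1683 and 431 to 1379 and 1296. Depth limits the low values: 9 samples have no known read total.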
